A study of Mus musculus with 5 samples.

Results

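The genes described are 10 members of the E2F and retinoblastoma (RB) network, chosen by symbol from the 52459 rows of the deposited table: E2f1, E2f2, E2f3, E2f4, E2f7, E2f8, Rb1, Rbl1, Rbl2 and Lin54. Each symbol occurred once, and all 10 were among the 11397 genes that averaged 1 FPKM or more (a read count set per length of transcript and per depth of library) that were tested. The libraries came from cells of the mouse pancreatic cancer line HY15549, of C57BL/6 strain background, all of which carried the GFP-LC3-RFP reporter of autophagy flux. The cells were grown as organoids in Matrigel, dissociated and sorted on their GFP/RFP ratio. The sort gave 2 libraries of autophagy-high cells (AThi) and 3 of autophagy-low cells (ATlo). Both populations therefore stem from 1 cell line and share the reporter and the kind of culture, and no untreated or reporter-free library was analysed here. The series calls its samples biological replicates without saying whether the cultures were separate, so p-values here reflect spread among these libraries alone, which may be technical.

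E2F proteins are transcription factors that bind the promoters of genes needed for DNA replication and cell division. E2F1, E2F2 and E2F3 are the activators of the family, E2F4 acts mostly as a repressor when bound by a pocket protein, and E2F7 and E2F8 are atypical repressors that bind DNA without a DP partner. The pocket proteins RB (gene Rb1), p107 (Rbl1) and p130 (Rbl2) hold E2F factors in check until cyclin-dependent kinases phosphorylate them, with p107 typical of cycling cells and p130 of resting cells. Lin54 encodes the DNA-binding subunit of MuvB, a core complex that joins p130 or p107 and E2F4 in the repressive DREAM complex and joins B-MYB and FOXM1 to activate mitotic genes.

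Transcripts of 8 of the 10 members fell in AThi, 1 rose and 1 did not pass the test. Rbl2 was the gene that rose, and Rb1 was the gene that did not pass. Of the 11397 genes tested, 51.6% were called at a limma adjusted p under 0.05, 29.4% as lower and 22.2% as higher in AThi. The library values of the 2 groups did not overlap for 9 of the 10 members, against 70.3% of all genes tested. The median log2 fold change of the members was -0.90, and that of all genes tested was -0.03. These are bulk libraries of FPKM, in which fewer cells that express a gene and less RNA of it per cell cannot be told apart.

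Implied depths were 27.6 to 45.0 M reads (M, 1e6). All 8 epithelial markers listed for the cell type check (Epcam, Krt7, Krt8, Krt18, Krt19, Cdh1, Muc1 and Sox9) passed 1 FPKM, and their summed level was 4265 and 4874 FPKM in AThi and 4349 to 5144 FPKM in ATlo. Single markers of that list differed, with 1 higher, 1 lower and log2 fold changes of -0.67 to 1.01. No marker of immune, fibroblast, endothelial or endocrine cells exceeded 0.14 FPKM in any library, and Adgre1, Col1a2, Dcn, Lum, Emcn, Kdr, Gcg, Ins1, Ins2 and Sst were at 0 throughout. Of 6 acinar markers, Cela1 alone passed 1 FPKM, Cpa1, Cela2a, Pnlip and Ptf1a were at 0, and the list summed to 10.2 and 11.2 FPKM in AThi and 11.9 to 13.2 FPKM in ATlo. The 15 immediate-early genes of a list of early responders, which respond to cell handling and growth signals, all rose in AThi (13 of 15 without AThi replicate 2 or with no filter on low values, 14 under robust moderation), with a summed level of 4137 and 6492 FPKM against 1388 to 2234 FPKM in ATlo. Of all genes tested, 22.2% were called as higher. The part of the immediate-early genes in the results below was not tested.

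The atypical repressors E2f7 and E2f8 and the pocket protein genes Rbl1, which fell, and Rbl2, which rose, are shown here by the promoter bases that precede their start sites, since E2F factors are known to control several genes of their own network. Sequences are from RefSeq on GRCm38.p6, the 250 bases before the annotated start, 5′ to 3′ on the gene's strand, at chr10:110745189-110745438 (plus strand), chr7:48881597-48881846 (minus), chr2:157204535-157204784 (minus) and chr8:91069807-91070056 (plus). Capitals mark matches to the E2F motif (TTCCCGC or TTCGCGC, and TTGGCGC or TTGCCGC) or to the CHR element that LIN54 binds (TTTGAA or TTCGAA), each searched on both strands.
E2f7: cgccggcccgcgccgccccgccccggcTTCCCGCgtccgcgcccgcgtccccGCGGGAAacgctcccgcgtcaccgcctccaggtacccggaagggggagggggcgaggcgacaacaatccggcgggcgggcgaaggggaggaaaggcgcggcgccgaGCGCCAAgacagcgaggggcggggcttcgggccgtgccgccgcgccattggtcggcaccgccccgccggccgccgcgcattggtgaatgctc
E2f8: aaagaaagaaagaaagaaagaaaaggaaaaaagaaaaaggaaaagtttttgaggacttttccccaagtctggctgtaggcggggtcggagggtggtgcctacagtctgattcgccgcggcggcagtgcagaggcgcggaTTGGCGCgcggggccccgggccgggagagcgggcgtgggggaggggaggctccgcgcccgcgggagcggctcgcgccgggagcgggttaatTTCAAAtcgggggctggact
Rbl1: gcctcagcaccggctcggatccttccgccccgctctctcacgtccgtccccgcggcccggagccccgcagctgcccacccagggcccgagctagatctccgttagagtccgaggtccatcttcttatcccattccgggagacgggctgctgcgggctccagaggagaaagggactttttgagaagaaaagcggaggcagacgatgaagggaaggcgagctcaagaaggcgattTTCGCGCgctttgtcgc
Rbl2: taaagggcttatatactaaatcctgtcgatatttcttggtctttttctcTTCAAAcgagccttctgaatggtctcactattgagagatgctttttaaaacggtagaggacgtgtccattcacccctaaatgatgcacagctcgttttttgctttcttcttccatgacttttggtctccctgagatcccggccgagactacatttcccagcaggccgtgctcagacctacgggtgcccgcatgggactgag

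E2f7 had 3 E2F matches before its start, beginning at bases -223, -198 and -92 counted from the start site. E2f8 had 1 E2F match at -111 and 1 CHR match at -20, read on the opposite strand as TTCAAA. Rbl1 had 1 E2F match at -17 and no CHR match, and Rbl2 had no E2F match and 1 CHR match at -201. RefSeq windows of 300 bases, from 250 before to 50 after a start, were given for 8 of the members in 11 windows. E2f4 and Rb1 had no window. An E2F match lay in 5 of the 11 windows, 1 each of E2f2, E2f3, E2f7, E2f8 and Rbl1, against 9.57% of 32851 promoter windows of the same length. No E2F match lay in the windows of E2f1 and Lin54, which also fell, or in that of Rbl2, which rose. A CHR match lay in 6 of the 11, against 19.2%. Motifs of the 2 kinds shared no bases in the printed stretches, and a match is a run of letters, not a shown binding site.

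Among the activators, E2f1 was at 8.75 and 8 FPKM in AThi and at 13.54, 14.82 and 14.71 FPKM in ATlo. Both AThi values lay below all ATlo values. The gene fell by 0.74 ± 0.07 (SE) on the log2(FPKM + 0.5) scale, with a limma adjusted p of 0.000334, and the AThi mean was 58.3% of the ATlo mean.

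E2f2, the activator with the lowest mean of the 3 in both groups, was at 1.20 and 1.44 FPKM in AThi and at 4.04, 5.01 and 4.95 FPKM in ATlo, where its range overlapped that of E2f3. Its groups were also separate, with the AThi mean at 28.3% of the ATlo mean, a lower share than for E2f1. The log2 fold change was -1.5 ± 0.12 (SE), with a limma adjusted p of 0.00016.

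E2f3 changed least of the 3 activators. It was at 4.22 and 3.71 FPKM in AThi and at 5.05, 4.72 and 5.77 FPKM in ATlo, so that the highest AThi library and the lowest ATlo library were close. The log2 fold change was -0.35 ± 0.10 (SE), with a limma adjusted p of 0.0287. The call was lost with no filter on low values (adjusted p 0.0845) and without AThi replicate 2, ATlo replicate 1 or ATlo replicate 3 (limma adjusted p of 0.16, 0.0519 and 0.0674). Summed over the 3 activators, the level was 14.2 and 13.2 FPKM in AThi and 22.6 to 25.4 FPKM in ATlo.

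**Figure D1:**
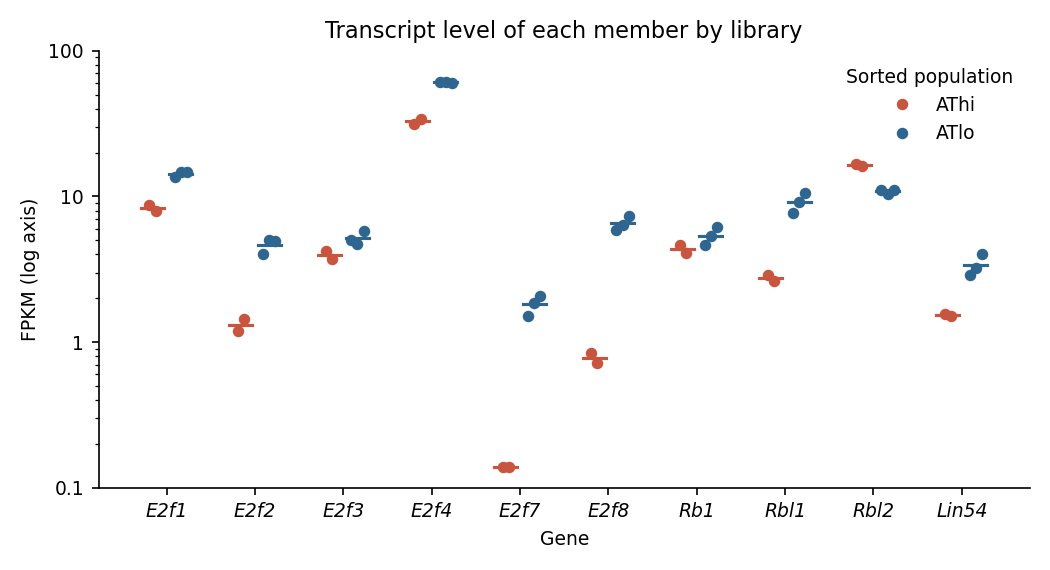
Level of each member in every library, in FPKM on a log axis, for AThi (red, 2 libraries) and ATlo (blue, 3 libraries), with horizontal lines at the group means. E2f7 and E2f8 are furthest apart between the populations, Rbl2 is the only member with the AThi libraries on top, and the values of Rb1 overlap.

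E2f4, the repressor that shuttles into the nucleus with pocket proteins, was the most abundant member in all 5 libraries. It was at 31.35 and 34.26 FPKM in AThi and at 60.75, 61.21 and 59.68 FPKM in ATlo. The ATlo libraries were close to each other, and the gap to AThi was far wider. E2f4 fell by 0.88 ± 0.06 (SE) on the log2 scale, with a limma adjusted p of 0.000109. It made up 63.1 to 71.0% of the summed FPKM of the 6 E2f members in every library. That sum followed it, at 46.5 and 48.3 FPKM in AThi and 90.8 to 94.6 FPKM in ATlo. The sum leaves out E2f5 and E2f6, which are not members. E2f5 averaged 14.0 FPKM in AThi and 12.4 FPKM in ATlo, and E2f6 averaged 7.07 and 8.53 FPKM. Adding them would lower the share of E2f4 in every library, most in AThi, where the sum is smaller.

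E2f8, an atypical repressor that is itself transcribed in S phase, had the lowest log2(FPKM + 0.5) fold change of the members. It was at 0.84 and 0.72 FPKM in AThi and at 5.90, 6.41 and 7.39 FPKM in ATlo, a ratio of means of 8.42. The log2 fold change was -2.46 ± 0.11 (SE), with a limma adjusted p of 3.65e-05. With a pseudocount of 0.1 it was -2.92. Like E2f7, E2f8 averaged under 1 FPKM in AThi and passed the filter on low values through its ATlo libraries.

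E2f7, the other atypical repressor, was at 0.14 FPKM in both AThi libraries and at 1.5, 1.86 and 2.08 FPKM in ATlo. The AThi values correspond to about 35 and 57 reads over the 9009 exonic bases of the gene in GENCODE M21, with exact Poisson 95% intervals of 0.0975 to 0.195 and 0.106 to 0.181 FPKM that cover counting error only. The ratio of means was 12.95, larger than that of E2f8. On the log2(FPKM + 0.5) scale, which compresses low values, the change was -1.85 ± 0.16 (SE), with a limma adjusted p of 0.000218, and with a pseudocount of 0.1 it was -2.98, past the -2.92 of E2f8, so that the order of the pair turns with the pseudocount. E2f7 passed the filter on low values through its ATlo libraries alone.

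The atypical repressors thus took a smaller share of the transcripts of the 6 E2f members in AThi. E2f7 and E2f8 together made up 2.11 and 1.78% of the summed FPKM of the 6 E2f members in AThi and 8.15, 8.80 and 10.0% in ATlo. The share of E2f1 to E2f3 differed far less, at 30.5 and 27.2% in AThi and 24.9 to 26.9% in ATlo. The sum of the 6 leaves out E2f5 and E2f6, and adding these would lower the AThi shares most. The order of the groups in the share of E2f1 to E2f3 therefore depends on which E2f genes are summed. Read against E2f1 within a library, E2f8 was at a ratio of 0.096 and 0.090 in AThi and of 0.432 to 0.502 in ATlo.

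The ratio of the activator E2f1 to the repressor E2f4 differed little between the populations. It was 0.279 and 0.234 in AThi and 0.223, 0.242 and 0.247 in ATlo, and the groups overlapped. The difference of the log2 ratios was 0.11, with an exact two-sided permutation p of 0.6, and without AThi replicate 1 it was -0.02. With 2 libraries against 3 this test cannot go below 0.2.

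Among the pocket proteins, Rbl1, the gene of p107 and itself a known E2F target, was at 2.89 and 2.62 FPKM in AThi and at 7.68, 9.12 and 10.52 FPKM in ATlo. The lowest ATlo library was well above both AThi libraries. Rbl1 fell by 1.55 ± 0.13 (SE) on the log2 scale, with a limma adjusted p of 0.00017, and the AThi mean was 30.2% of the ATlo mean.

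Rbl2, the gene of p130, moved the other way. It was at 16.79 and 16.15 FPKM in AThi and at 11.16, 10.47 and 11.13 FPKM in ATlo, with no overlap. It rose by 0.57 ± 0.06 (SE) on the log2 scale, a ratio of means of 1.51, with a limma adjusted p of 0.000519. The exons of Rbl2 share 693 bases, or 9.17% of their length, with Aktip on the opposite strand, and 892 bases, or 11.8%, with Gm45464, which did not exceed 0.23 FPKM in any library. Aktip itself was at 9.86 and 10.4 FPKM in AThi and 10.1 to 10.9 FPKM in ATlo, and whether counting used strand is not given in the sources used here.

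Rb1 was at 4.63 and 4.08 FPKM in AThi and at 4.62, 5.31 and 6.21 FPKM in ATlo. The groups overlapped between AThi replicate 1 and ATlo replicate 1. The log2 fold change was -0.27, with a 95% interval of -0.56 to 0.02 and a limma adjusted p of 0.109. Without ATlo replicate 1 it was -0.37, with an adjusted p of 0.036.

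Within the pocket protein family the makeup changed more than the total. Rbl2 made up 69.1 and 70.7% of the summed FPKM of the 3 genes in AThi and 47.6, 42.1 and 39.95% in ATlo, while Rbl1 made up 11.9 and 11.5% in AThi and 32.7, 36.6 and 37.8% in ATlo. The sum itself was 24.3 and 22.9 FPKM in AThi and 23.5, 24.9 and 27.9 FPKM in ATlo, and these ranges overlapped. The ratio of Rbl1 to Rbl2 was 0.172 and 0.162 in AThi and 0.688, 0.871 and 0.945 in ATlo. On the log2 scale the ratios averaged -2.58 ± 0.06 (SD, n = 2) and -0.27 ± 0.24 (SD, n = 3), a difference of -2.31, with an exact two-sided permutation p of 0.2, the smallest this design allows.

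**Figure D2:**
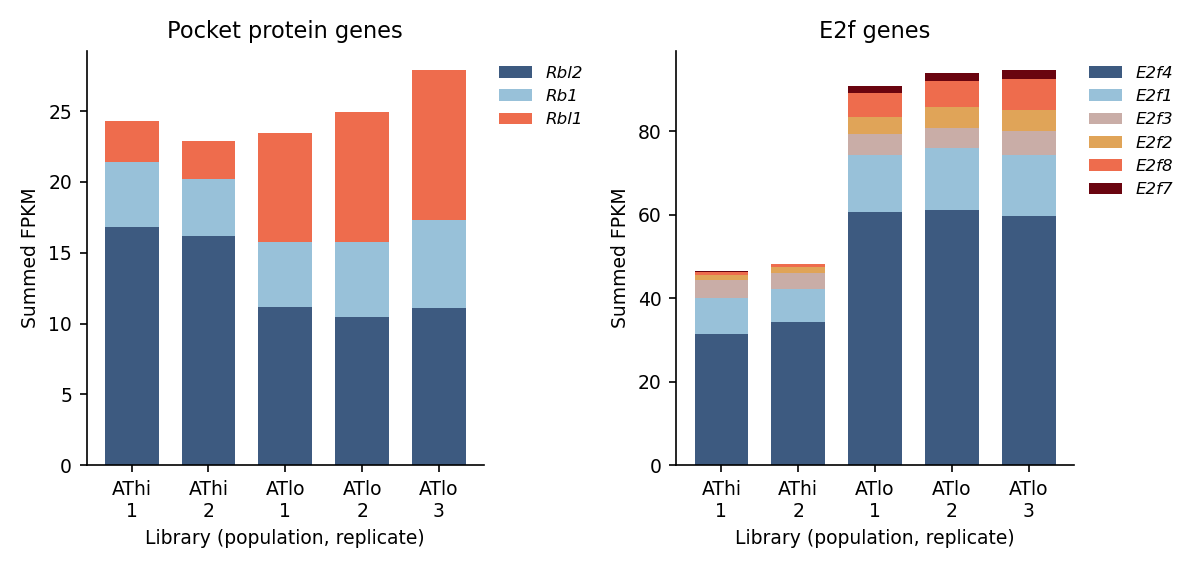
Stacked FPKM of the 3 pocket protein genes (left) and of the 6 E2f members (right) in each of the 5 libraries, each bar 1 library and each colour 1 gene. The pocket protein totals are alike, at 22.9 to 27.9 FPKM, with more Rbl2 and less Rbl1 in AThi. The totals of the 6 E2f members, without E2f5 and E2f6, are 46.5 and 48.3 FPKM in AThi and 90.8 to 94.6 FPKM in ATlo, most of it E2f4.

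Lin54, the DNA-binding subunit of MuvB, was at 1.55 and 1.52 FPKM in AThi and at 2.90, 3.24 and 4.03 FPKM in ATlo. The groups were separate, although the ATlo libraries spread over more than 1 FPKM. The gene fell by 0.92 ± 0.14 (SE) on the log2 scale, with a limma adjusted p of 0.00157.

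The order of the 10 levels differed between the populations. FPKM is per length, so genes can be ranked within a library, given the gene lengths that the authors used. Those lengths are not known here, so close ranks may depend on them. In AThi the order was E2f4, Rbl2, E2f1, Rb1, E2f3, Rbl1, Lin54, E2f2, E2f8 and E2f7, and Rb1 and E2f3 were the only neighbours whose library values overlapped. In ATlo it was E2f4, E2f1, Rbl2, Rbl1, E2f8, Rb1, E2f3, E2f2, Lin54 and E2f7, and the values of Rbl2 and Rbl1, of E2f8 and Rb1, of Rb1 and E2f3, and of E2f3 and E2f2 overlapped. Rbl2 stood above E2f1 in AThi and below it in ATlo, and E2f8 went from the fifth place in ATlo to the ninth in AThi.

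The other E2F, DP and MuvB genes were read from a list chosen for their roles, and all 10 were tested. In AThi 4 of them fell and 6 did not pass, where 29.4% of all genes tested fell. Their median log2 fold change was -0.23. Foxm1 and Mybl2, which encode the mitotic activator FOXM1 and B-MYB, fell by 2.98 ± 0.12 and 2.88 ± 0.17 (SE). Mybl2 was at 0.34 and 0.47 FPKM in AThi and 4.83, 6.65 and 7.14 FPKM in ATlo. It passed the filter on low values through its ATlo libraries. With a pseudocount of 0.1 the log2 fold changes of Mybl2 and Foxm1 were -3.64 and -3.22, so their order turns with the pseudocount. Tfdp1, which encodes the DP1 partner of the E2F factors, fell by 0.95 ± 0.07 (SE), from 33.3 ± 2.08 FPKM in ATlo (SD, n = 3) to 17.0 ± 0.63 FPKM in AThi (SD, n = 2).

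The remaining partners had smaller differences. E2f6, a repressor that works without pocket proteins, changed by -0.26 ± 0.09 (SE), with a limma adjusted p of 0.0392, and with 0.0585 after rescaling to TPM and 0.0548 with median-of-ratios size factors. It did not pass when all genes above 0 were tested (0.0899), nor without AThi replicate 2, ATlo replicate 1, ATlo replicate 2 or ATlo replicate 3 (limma adjusted p of 0.214, 0.0816, 0.0964 and 0.0706). E2f5, a pocket-binding repressor like E2F4, was at 14.43 and 13.59 FPKM in AThi and at 11.95, 12.09 and 13.08 FPKM in ATlo, with a log2 fold change of 0.17 and a limma adjusted p of 0.0737. With those same rescalings its adjusted p was 0.0467 and 0.0377, which passes as higher. Tfdp2, the gene of a second DP partner, and Rbbp4, a histone-binding MuvB subunit, had log2 fold changes of -0.18 and -0.21 with adjusted p-values of 0.103 and 0.0832. For the MuvB subunits Lin9, Lin37 and Lin52 they were -0.35 (95% interval -0.69 to -0.02), 0.01 (-0.14 to 0.16) and 0.03 (-0.28 to 0.34), with limma adjusted p-values of 0.0712, 0.933 and 0.875. Lin9 passed without ATlo replicate 1 (-0.46, adjusted p 0.0202) and Rbbp4 without AThi replicate 1 (-0.32, adjusted p 0.0329). Lin54 was the MuvB subunit that passed with all 5 libraries, and the difference between it and the other subunits was not tested.

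**Figure D3:**
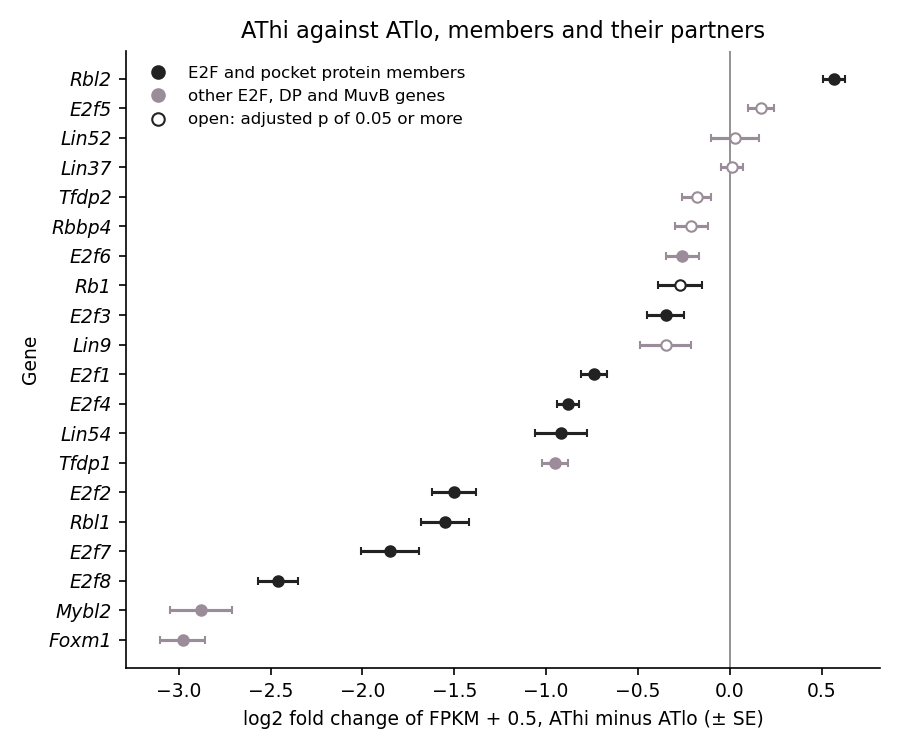
Log2 fold change of FPKM + 0.5, AThi minus ATlo, with its SE, for the 10 members (black) and 10 other E2F, DP and MuvB genes (grey). Filled points have a limma adjusted p under 0.05. Foxm1, Mybl2, E2f8 and E2f7 are at the low end, and Rbl2 at 0.57 is the only filled point above 0, where E2f5 also passes after rescaling to TPM or with size factors.

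Genes known as E2F targets at the G1/S transition fell together. All 35 genes of a list chosen for this role were tested and fell in AThi, with log2 fold changes of -3.33 to -0.30 and a median of -1.59. Of all genes tested, 29.4% were called as lower. Rrm2, a ribonucleotide reductase subunit, fell by 3.33 ± 0.13 (SE), Uhrf1, which guides maintenance DNA methylation, by 2.89 ± 0.10 (SE), and the replicative helicase subunit Mcm5 by 2.68 ± 0.08 (SE). With 1 library left out, 33 to 35 of the 35 fell.

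Mitotic genes bound by MuvB with B-MYB and FOXM1 fell as well, all 24 of their list against 29.4% of all genes tested. Their log2 fold changes ran from -3.84 to -1.02 around a median of -3.08, a range that overlaps that of the G1/S list, and the difference between the lists was not tested. All 24 fell with any 1 library left out. Ccna2, Ube2c and Birc5, which encode cyclin A2, an anaphase ubiquitin-conjugating enzyme and survivin, had the largest falls, and Top2a, the gene of topoisomerase II alpha, was the most abundant in ATlo at 54.6 ± 12.7 FPKM (SD, n = 3) against 5.42 ± 0.49 FPKM in AThi (SD, n = 2). In both lists some genes passed the filter on low values through ATlo, such as Mcm10 and Ccnb1 (AThi means 0.48 and 0.335 FPKM). The gene lists were chosen with earlier results of these data known.

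The kinases, cyclins and inhibitors that act on the pocket proteins were mixed. Of 16 tested, 7 fell and 4 rose, 5 missed the threshold, and the median was -0.20. Of all genes tested, 29.4% fell and 22.2% rose, so the rises of this list are near that share. The cyclin E genes Ccne1 and Ccne2, themselves E2F targets, fell by 2.05 ± 0.11 and 1.66 ± 0.17 (SE), and the CDK4/6 inhibitor gene Cdkn2d by 1.22 ± 0.10 (SE). Ccne1 and Ccne2 are also counted in the G1/S list. With AThi means of 0.63 and 0.965 FPKM, they passed the filter on low values through their ATlo libraries. Ccnd1, the cyclin D1 gene and the most abundant of the list in ATlo, was at 144.8 and 112.1 FPKM in AThi and at 206.6, 189.9 and 194.7 FPKM in ATlo, and fell by 0.63 ± 0.11 (SE).

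The 4 that rose, named after their values were seen, were Cdkn1c, Cdkn1a, Ccnd2 and Cdkn2b. Cdkn1c and Cdkn1a, which encode the CDK inhibitors p57 and p21, rose by 1.13 ± 0.20 and 0.96 ± 0.25 (SE). Cdkn1a was at 15.64 and 27.53 FPKM in AThi and at 8.01, 11.85 and 11.86 FPKM in ATlo. Its limma adjusted p was 0.0177, and the call was lost without AThi replicate 2 (0.56, adjusted p 0.103), under robust moderation (0.0602) and when all genes above 0 were tested (0.079). Ccnd2, the cyclin D2 gene, rose by 0.94 ± 0.09 (SE) and Cdkn2b, the gene of the CDK4/6 inhibitor p15, by 0.42 ± 0.10 (SE). Cyclin D1 and cyclin D2 transcripts therefore moved in opposite directions, with Ccnd2 at 120.6 and 103.8 FPKM in AThi and at 62.45, 58.00 and 53.75 FPKM in ATlo. The Cdkn2b call was lost without AThi replicate 1 (0.30, limma adjusted p 0.0939) and with no filter on low values (0.0528), where 2 of the list rose.

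Chromatin proteins that pocket proteins and E2F6 recruit were also mixed, with 8 of 17 lower, 4 higher, 5 short of the threshold and a median of -0.11. Over all genes tested 29.4% were lower and 22.2% higher, so the rises of this list are near that share. Ezh2, a histone methyltransferase gene that E2F factors regulate and that is also counted in the G1/S list, fell by 1.01 ± 0.10 (SE). Suv39h1, another histone methyltransferase gene, fell by 0.88 ± 0.08 (SE). Smarca2, which encodes the BRM ATPase of SWI/SNF, rose by 0.75 ± 0.14 (SE), and Rbbp7, a histone-binding protein gene and the most abundant of the list in ATlo, fell by 0.50 ± 0.07 (SE). All 3 genes of the list of E2F protein turnover fell: Ccnf, Skp2 and Fzr1, which encode substrate adaptors of ubiquitin ligases, by 2.33 ± 0.13, 0.91 ± 0.11 and 0.42 ± 0.07 (SE).

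**Figure D4:**
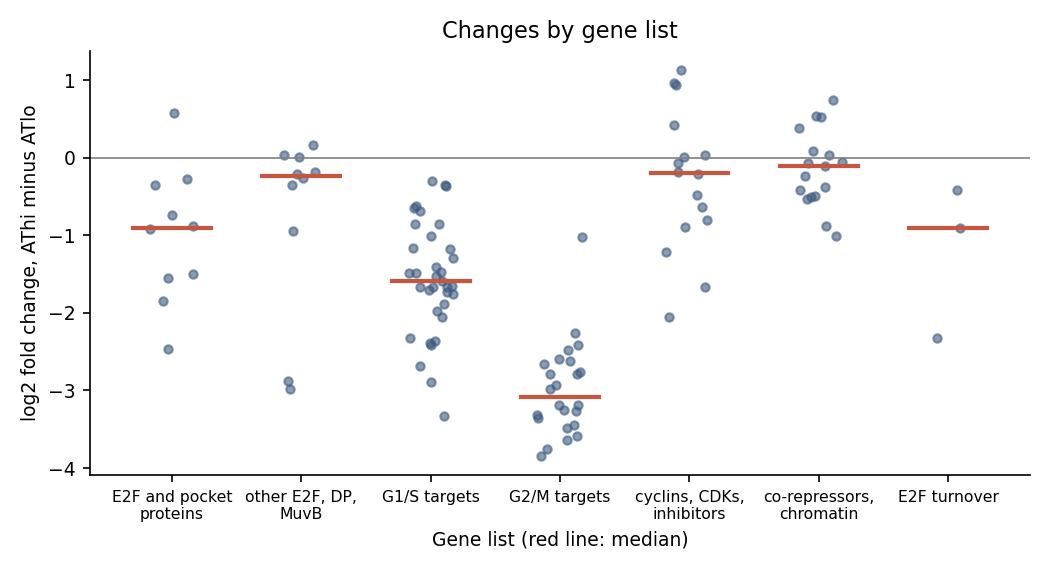
Log2 fold change, AThi minus ATlo, of every tested gene (points) in 7 gene lists, with the median as a red line. The medians are -0.90 for the E2F and pocket protein members, -1.59 for G1/S targets and -3.08 for G2/M targets. The lists of members (with Rbl2 above 0), partners, cyclins and kinases, and co-repressors have points on both sides of 0.

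The genes nearest in pattern to the lowest and highest members were found by the root mean square difference of log2(FPKM + 0.5), centred over the 5 libraries. For E2f8 they were Diaph3, Nuf2 and Mcm10, at 0.028, 0.041 and 0.055. For Rbl2 they were Garem1, Ablim1 and Scamp1, at 0.008, 0.022 and 0.023. With 5 libraries in 2 groups, this likeness mostly reflects the difference between the groups.

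On GRCm38 in GENCODE M21, E2f7 lies on chromosome 10 (110745439 to 110787384, plus strand), E2f8 on chromosome 7 (48866429 to 48881596, minus strand), Rbl1 on chromosome 2 (157145893 to 157204534, minus strand) and Rbl2 on chromosome 8 (91070057 to 91123844, plus strand). E2f4 lies on chromosome 8 as well (105297663 to 105305370, plus strand). The exons of E2f8 share 610 bases with Gm2788 on the opposite strand, which did not exceed 0.1 FPKM in any library. Those of Rb1 share 488 bases with Rcbtb2 and 408 with Lpar6, both on the opposite strand. Rcbtb2 was at 1.78 and 1.54 FPKM in AThi and 1.39 to 1.55 FPKM in ATlo. Lpar6 was at 2.65 and 1.9 FPKM in AThi and 1.23 to 1.73 FPKM in ATlo. Their part in the Rb1 values was not tested.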

How the data were processed

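Per the labels' protocols, RNA of sorted cells was made into stranded mRNA libraries. The authors deposited 1 table of FPKM with a column per library, rounded to 2 decimals. The submitters' processing notes list the builds mm10 and GRCm38 beside the tools DESeq2, featureCounts, STAR and bcl2fastq, without roles. Not given in the sources used here are the annotation, the strand setting of the counting and the FPKM formula.

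Depth was read from single-exon genes of up to 200 bases, where FPKM times length came out as whole steps (within 0.1 of a step for 99.7 to 100% of 355 to 453 values). Exon lengths came from GENCODE M21, and their use assumes that the authors' gene models were similar.

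The 11397 genes that averaged 1 FPKM or more entered a two-sided limma 3.58.1 fit (R 4.3.3, lmFit and trended eBayes) of log2(FPKM + 0.5) on group, with Benjamini-Hochberg adjustment over all of them. Residual degrees of freedom were 3 and prior ones 3.89. The script was tested on simulated data. Ratios used an exact permutation test in SciPy 1.17.1. Fold changes are AThi minus ATlo and understate changes of low genes. The alternatives were the pseudocount, the filter, the scaling, the moderation, a replicate block and leaving out each library.

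The members and lists were chosen with earlier results of these data known. Genes named beside them by rule are all tested partners and, for each other list, the 3 largest changes past the threshold and the most abundant gene in ATlo. For E2f8 and Rbl2 the 3 nearest genes are named. Outside this rule are the 4 kinase, cyclin and inhibitor genes that rose, named after their values were seen. Mcm10 and Ccnb1, as examples of low AThi values, cell type markers and genes with overlapping exons are also named outside it.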

Additional observations from a re-analysis of the deposited data

How the results depend on the processing

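E2f1, E2f2, E2f4, E2f7, E2f8, Rbl1, Rbl2 and Lin54 kept their direction and their call under every alternative in which they were tested. With a minimum mean of 5 FPKM only 4 members were tested and 4 were called, 3 of them lower. Over all 7685 genes tested in that setting 4414 were called, 1683 of them higher. With no filter on low values E2f3 had a log2 fold change of -0.35 and an adjusted p of 0.0845. With each library left out in turn, E2f3 ranged from -0.43 to -0.26 and was called in 2 of 5 fits, and Rb1 ranged from -0.37 to -0.17 and was called in 1. Between 8 and 9 members were called, and 4309 to 5718 genes in all. In these fits a group left with 1 library is assumed to vary like the other. The log2 ratio of E2f1 to E2f4 ranged from -0.02 to 0.24, and that of Rbl1 to Rbl2 from -2.44 to -2.21. Lin37 ranged from -0.01 to 0.03 and Lin52 from -0.07 to 0.08, both on either side of 0 and called in no fit. The titles give both groups replicate numbers 1 and 2, and same-numbered titles also share the start of a bracketed code, whose meaning no label gives. The third ATlo library has a code of its own. Deviations from the group means correlated across genes at 0.20 for number 1 and 0.30 for number 2. The deviations of the 2 AThi libraries mirror each other, so the crossed pairs were at -0.20 and -0.30 by construction. The correlations are therefore not independent of each other. With the replicate block 5909 genes and 9 members were called, 1 of them higher, E2f3 was at -0.27 and Rb1 at -0.17, and no call of a member changed. At 2 against 3 libraries and these depths, E2f7 in AThi rests on 35 and 57 reads.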

Other observations

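The ATlo libraries were not alike in cell cycle transcripts. ATlo replicate 1 was the lowest of the 3 for 7 of the 10 members, for 30 of 35 G1/S targets and for 24 of 24 G2/M targets. ATlo replicate 3 was the highest for 6, 31 and 23 of them. The summed level of the G2/M list was 57.0 and 63.4 FPKM in AThi and 482, 568 and 661 FPKM in ATlo. The spread within ATlo was thus smaller than the gap to AThi in every pair of libraries. The immediate-early list summed to 1838, 2234 and 1388 FPKM in the same ATlo libraries.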
